A study of Mus musculus with 8 samples.

Results

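Huntingtin (HTT) peaks that recurred in distal intergenic sequence of the mouse cortex numbered 4167. Peaks of 4 HTT ChIP-seq libraries on chromosomes 1 to 19 were merged where they overlapped by at least 1 bp, and a merged region was kept when it held a peak from at least 2 libraries and its midpoint lay outside every protein-coding gene and over 20 kb from any protein-coding gene body. The members were thus chosen by the presence of peaks and by their position, and these are given as a description. They made up 30.1% of the 13861 recurring regions and 7.36% of the 56600 distal regions among 153005 merged regions in all. Of the members, 3666 held a peak from 2 libraries, 451 from 3 and 50 from all 4.

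The libraries came from cortex of male B6 mice in 4 groups, with the age of 4 months given at the start of treatment: untreated Htt+/+, Htt+/+ given an antisense oligonucleotide against huntingtin (HTT-ASO), untreated HttQ111/+ and HttQ111/+ given HTT-ASO. HttQ111 is a knock-in allele in which exon 1 of human HTT with an expanded CAG tract replaces the mouse exon, so HttQ111/+ mice make both wild-type and expanded huntingtin. HTT-ASO acts on the transcripts of both alleles and was given at 500 µg into the cerebral ventricle of 1 side, 4 weeks before the tissue on the injected side was taken. Each group was 1 library from a pool of 3 mice per the labels, although the methods describe 2 pooled cortices, so there was no replicate error to compare a difference with. Chromatin was recovered with antibody EPR5526 against the N-terminal part of huntingtin, and the untreated mice had no injection and thus no injected side. How far HTT was lowered in these pools was not measured here, nor could the tissue be checked by marker expression. In pooled tissue, fewer cells with a signal and less signal per cell cannot be told apart.

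Huntingtin is a large, mainly cytoplasmic scaffold protein built of HEAT repeats, part of which enters the nucleus. Recovery with crosslinked chromatin does not tell direct contact with DNA from contact through partner proteins. Distal intergenic sequence of mammals holds enhancers, small RNA genes and long noncoding RNA genes, but much of it is repeat sequence such as LINE-1 retrotransposons. An active mouse LINE-1 begins with GC-rich units in tandem that act as its promoter, followed by a short first reading frame and a long second one (ORF2), which encodes the endonuclease and reverse transcriptase that copy the element.

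The following sequences (mm9, plus strand) show the kinds of sequence found in the members. They include a repeated 6-base unit, a CAG tract, a member before a long reading frame and a member of unrepeated sequence. Also shown are an entry annotated as RNase P RNA and CpG-rich bases of a member that overlapped the RefSeq promoter of Fgf12. The Fgf12 bases shown lie outside that promoter. The sequences are named by the nearest protein-coding gene, or by the RNA gene in the member. Capitals mark AGAGGC units at Tdrd3 (chr14:87734659-87734858), the CAG run at Mrps33 (chr6:39799959-39800158), CG dinucleotides at Gm6685 (chr11:28198566-28198765), Hey1 (chr3:8731365-8731538) and Fgf12 (chr16:28564988-28565187), and the annotated gene at RNaseP_nuc (chr13:33659619-33659918).
Tdrd3: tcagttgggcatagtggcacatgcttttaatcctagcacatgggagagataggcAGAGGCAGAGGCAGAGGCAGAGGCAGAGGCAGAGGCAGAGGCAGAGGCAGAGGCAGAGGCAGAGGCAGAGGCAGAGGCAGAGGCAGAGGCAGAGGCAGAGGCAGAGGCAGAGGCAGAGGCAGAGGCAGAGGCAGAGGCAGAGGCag
Mrps33: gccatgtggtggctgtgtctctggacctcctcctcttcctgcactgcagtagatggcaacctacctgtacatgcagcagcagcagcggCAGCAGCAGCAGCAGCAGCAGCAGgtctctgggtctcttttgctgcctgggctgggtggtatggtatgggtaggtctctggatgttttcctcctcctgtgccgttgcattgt
Gm6685: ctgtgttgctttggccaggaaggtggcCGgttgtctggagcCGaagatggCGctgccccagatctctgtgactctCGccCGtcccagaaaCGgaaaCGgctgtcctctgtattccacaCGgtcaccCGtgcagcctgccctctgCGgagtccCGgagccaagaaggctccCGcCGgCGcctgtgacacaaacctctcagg
Hey1: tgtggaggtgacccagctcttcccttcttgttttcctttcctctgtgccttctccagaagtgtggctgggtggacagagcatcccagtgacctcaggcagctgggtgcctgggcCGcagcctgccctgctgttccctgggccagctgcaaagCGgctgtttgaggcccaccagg
RNaseP_nuc: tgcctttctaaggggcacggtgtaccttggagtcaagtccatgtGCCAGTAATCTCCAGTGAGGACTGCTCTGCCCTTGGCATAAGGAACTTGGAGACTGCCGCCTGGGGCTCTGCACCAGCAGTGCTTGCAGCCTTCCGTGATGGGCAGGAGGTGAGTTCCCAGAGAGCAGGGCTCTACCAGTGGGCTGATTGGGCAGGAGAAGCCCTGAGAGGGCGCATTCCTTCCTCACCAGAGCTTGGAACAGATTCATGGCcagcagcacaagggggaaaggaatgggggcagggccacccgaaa
Fgf12: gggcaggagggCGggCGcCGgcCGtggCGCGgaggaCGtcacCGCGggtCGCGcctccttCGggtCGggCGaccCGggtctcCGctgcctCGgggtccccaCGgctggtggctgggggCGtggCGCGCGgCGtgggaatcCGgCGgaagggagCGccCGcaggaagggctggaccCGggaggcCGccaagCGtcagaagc

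The libraries were shallow. Whole reads recovered from the deposited values gave 1.10 to 1.36 ChIP reads per kb, and the median member reached 4 reads at the summit of its highest peak. Only 25.4% of the members had a peak of 5 or more reads, compared with 90.9% of recurring regions within 1 kb of a protein-coding start site. Members had a median length of 391 bp. They were spread at 3.92 per Mb over the 1063 Mb of distal sequence, compared with 7.29 per Mb for recurring regions elsewhere. Recurrence was less frequent in distal sequence than in the other places: 7.36% (95% Wilson interval 7.15 to 7.58) of distal regions recurred, compared with 8.34% in gene bodies, 8.20% outside genes within 20 kb and 31% at start sites. Intervals here cover counting error only, since neighbouring regions are not independent.

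Of the 10 members with peaks in all 4 libraries and the highest lowest fold enrichment, 9 are described here, and they included several repeats. The member 81.7 kb from Tdrd3, which encodes a reader of methylated arginine, held 24 exact AGAGGC units in the 200 bases shown. Its fold enrichment was 6.60, 5.24, 12.83 and 5.50 in Htt+/+ untreated, Htt+/+ ASO, HttQ111/+ untreated and HttQ111/+ ASO cortex. The HttQ111/+ untreated library was highest, with 23 reads compared with 12 to 14 in the others. The local background of this member, as recovered from its ratio and reads, was 6.87 times the lowest, genome-wide one, and its most repeated stretch of 100 bases occurred 11853 times in the genome.

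Other members of this set were of unrepeated sequence, and the gene nearest to several of them acts in the nervous system. The member 64.6 kb from Hey1, a transcriptional repressor downstream of Notch, had fold enrichments of 6.47, 6.08, 6.93 and 5.89 in the same order, from 4, 4, 4 and 5 reads. The member 195 kb from Tac1, which encodes the precursor of substance P, had 6.96, 4.96, 7.11 and 5.72, from 4, 3, 4 and 4 reads. In both, fold enrichment was lower with ASO in each genotype, but the reads behind the values differed by at most 1, and at Hey1 the HttQ111/+ ASO library had the most reads. The member 684 kb from Kcnv1, a modulatory potassium channel subunit, had 6.96, 6.45, 5.45 and 5.72, and the member 50.6 kb from Plxna4, a semaphorin co-receptor, had 5.34, 5.47, 5.45 and 5.72. Each of these values rests on 3 or 4 reads, so no order of the libraries can be read from them.

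The other members of the set lay near Gm13138 (23.6 kb), Efha1 (31.2 kb), Gm6685 (40.5 kb) and Mrps33 (39.1 kb). The Efha1 member, near a gene of mitochondrial calcium uptake, had 5.82, 10.29, 11.77 and 6.99. In its central 400 bases, 59.9% of the 12-base words occurred more than once. The Mrps33 member, near a gene of the mitochondrial ribosome, had 5.34, 6.08, 4.83 and 6.99, and held 8 CAG units in a row. At Gm13138 all of the member's 100-base stretches occurred elsewhere in the genome.

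**Figure D1:**
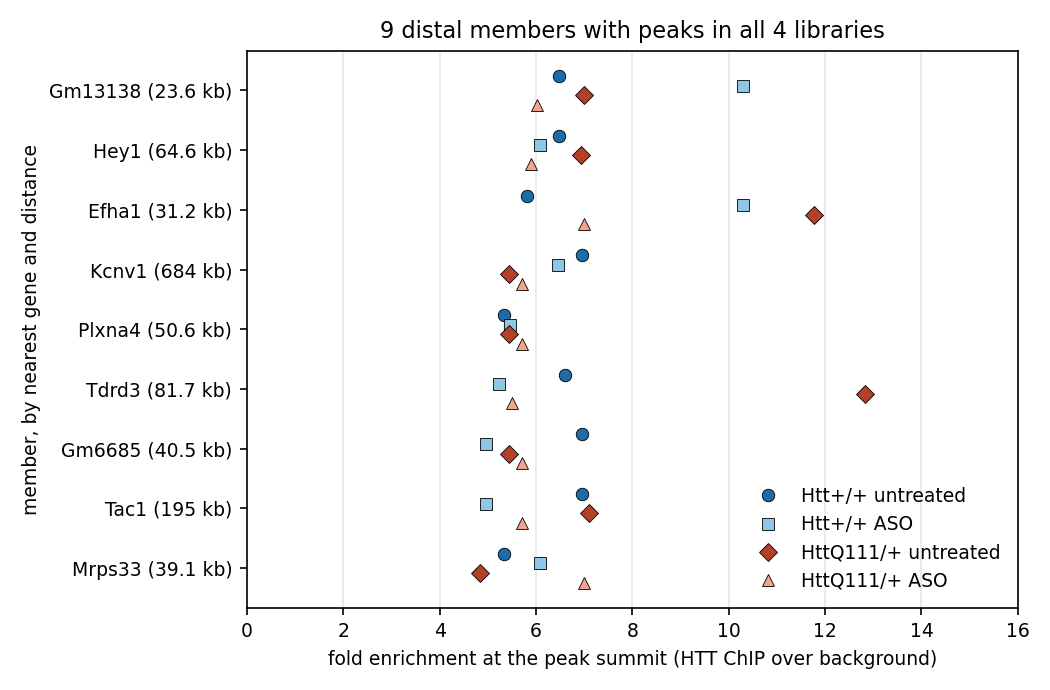
Fold enrichment at the summit (x axis, HTT ChIP over background, linear) of 9 named members with peaks in all 4 libraries (y axis, nearest gene and distance); each symbol is 1 library. Most values lie between 5 and 7 with no common order of the libraries, and the highest among these 9 is 12.83 at Tdrd3 in untreated HttQ111/+ cortex.

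Members were GC-rich compared with the sequence around them. The median GC content was 53.04% (52.82 to 53.21) in members, 49.48% in distal regions of 1 library and 40% in 400-base tiles of distal sequence. It was higher the more libraries a member had, from 52.69% in members of 2 libraries to 55.53% for 3 and 57.11% for 4. Recurring regions outside genes within 20 kb had nearly the same median (53.34%, 53.03 to 53.67), and those of gene bodies (54.98%) and start sites (71.75%) a higher one. Members were also the higher at equal reads: among distal regions whose highest peak had 3 reads, the median GC of 200 bases at the summit was 52.0% in 1804 members and 49.0% in 29237 regions of 1 library, and with 6 reads it was 60% and 59.0%. The part of GC content in the recovery and sequencing of these fragments was not tested.

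Recurrence by GC content was close to that in gene bodies. With under 40% GC at the summit, 0.957% of distal and 0.694% of gene body regions recurred. With 50% to 60%, the shares were 9.99% (9.62 to 10.4) and 8.86% (8.55 to 9.18), and with 60% to 70% they were 22.8% and 20.5%. With 70% or more, 49.5% (42.3 to 56.7) of 182 distal regions, 50.1% (46.9 to 53.2) of 971 gene body regions and 47.1% of 3549 start site regions recurred. Distal regions with the GC content of a start site thus recurred at a share within counting error of start sites, but only 182 of the 56600 had it.

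**Figure D2:**
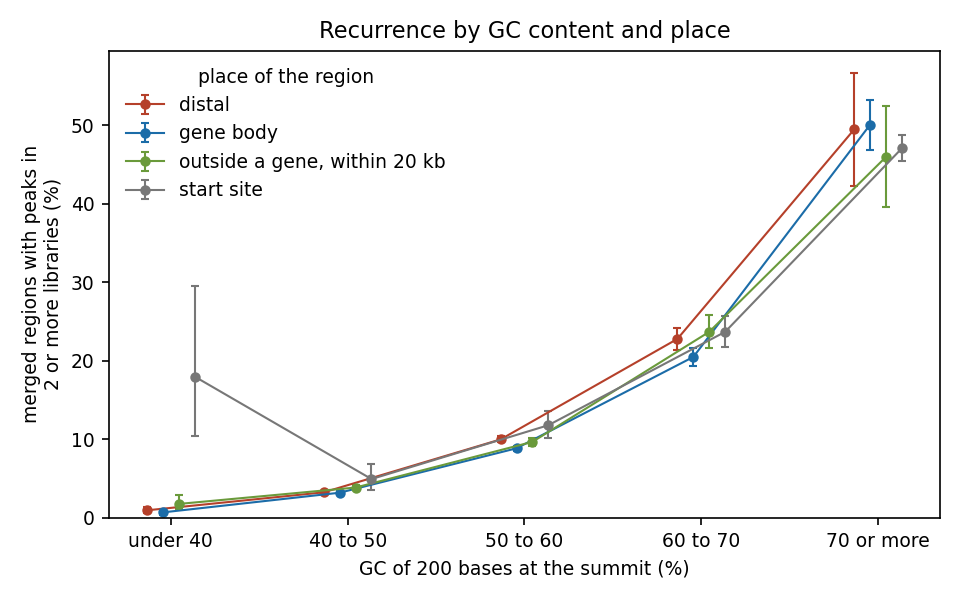
Share of merged regions with peaks in 2 or more libraries (y axis, %) by GC content of the 200 bases at the summit (x axis, %), for regions in 4 places; bars are 95% Wilson intervals. The distal curve runs from 0.957% to 49.5% beside that of gene bodies, and the point of start sites under 40% rests on 61 regions.

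CpG-rich sequence was more frequent the more libraries a member had. Using the rule of over 50% GC and a CpG observed to expected ratio over 0.6, 6.82% of members were CpG-island-like, as were 14.4% of members of 3 or 4 libraries, 24% of those in all 4, 2.28% of distal regions of 1 library and 0.288% of tiles. The letters GGGCGGG, the box bound by Sp1-type factors, were found on either strand of the central 400 bases (the window of every motif here) in 6.60% of members, 12.2% of members of 3 or 4 libraries, 2.79% of regions of 1 library and 1.26% of tiles. The neuronal E-box CAGATGG was found in 11% of members, 9.93% of regions of 1 library and 7.08% of tiles. AT-rich sites went the other way. The MEF2 site, bound by activity-dependent neuronal factors, was found in 1.58% of members, 3.61% of regions of 1 library and 10.1% of tiles, and the octamer ATGCAAAT in 1.58%, 2.86% and 4.07%. The AP-1 site TGANTCA was found in 9.91%, 11.4% and 11.8%, and the cAMP response element TGACGTCA in 0.312%, 0.381% and 0.176%. The core CTCF site was in 8 members (0.192%) and 0.161% of tiles, and the RE1 element of REST in no member. Most of these motifs are themselves rich in either GC or AT, and a match is no binding site.

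Short tandem repeats separated by their composition. Runs of 24 bases or more of a unit of 1 to 6 bases were found in 4.18% of members, 5.97% of regions of 1 library and 9.42% of tiles. Runs whose unit was mostly G and C were found in 1.58% (1.25 to 2.01) of members, 2.40% of members of 3 or 4 libraries, 0.778% of regions of 1 library and 0.826% of tiles, while other runs were found in 2.83%, 1.40%, 5.37% and 8.99% in the same order. The AGAGGC unit was in 16 members (0.384%, 0.236 to 0.623), 0.166% of regions of 1 library and 0.0324% of tiles. The ACAGC unit was in 9 members (0.216%), 0.0324% of regions of 1 library and 0.00527% of tiles. CA runs, a frequent short repeat, were in 1.85% of members and 3.42% of tiles. These units were chosen after the sequences of the members had been seen.

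CAG tracts were followed because huntingtin itself is encoded by a gene with one. A run of 5 or more CAG units on either strand was found in 21 members (0.504%), 7 of them (1.40%) in members of 3 or 4 libraries, in 0.208% of distal regions of 1 library and in 0.070% of tiles. The longest had 23 units, 282 kb from Irak1bp1, with fold enrichments of 5.47 in Htt+/+ ASO and 4.41 in HttQ111/+ ASO cortex and no peak in either untreated library. Both peaks held 3 reads. A run of 20 units 138 kb from Emx2, a homeobox gene of cortical patterning, had 7.25 in Htt+/+ untreated and 9.52 in HttQ111/+ untreated cortex and no peak with ASO. These peaks held 4 and 5 reads. A run of 17 units 410 kb from Cdh6, a cadherin, had 5.47 in ASO-treated Htt+/+ cortex, and 6.19 in untreated and 4.41 in ASO-treated HttQ111/+ cortex. Each of the Cdh6 peaks held 3 reads, so no order of the libraries can be read from these values. Among 20 of the 21, a peak was present in 10 in untreated and 13 in ASO-treated Htt+/+ cortex, and 18 in untreated and 7 in ASO-treated HttQ111/+ cortex. Over all members, the shares with a peak were 56.1%, 55.7%, 57.8% and 43.6% in the same order. The HttQ111/+ untreated library thus held the largest number of both, but its lead among all members was small. Of the CAG members, 3 lay within 167 kb of A230006K03Rik, with runs of 11, 12 and 13 units. These members were named after their values were seen, and the CAG tract of Htt lies in a gene and so is outside the set.

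Repeated sequence made up a part of the members. Over 50% of the 100-base stretches occurred elsewhere in the genome in 11.6% of members and 18.4% of members of 3 or 4 libraries, compared with 6.59% of distal regions of 1 library. Among recurring regions elsewhere, the share was 10.4% (9.26 to 11.8) outside genes within 20 kb, close to that of members (10.7 to 12.6), and 4.10% in gene bodies. Exact stretches of 100 bases were shared with another member by 511 members (12.3%), in 54 groups. The largest group held 172 members on 19 chromosomes with a median GC of 63.1%, and the next 2 groups held 78 and 50 members with 61.5% and 63.7%. Members that shared sequence had a median GC of 60.8%, the others 52.4%. Members with no repeated stretch (3072, 73.7%) had a median GC of 52.4%, compared with 49.2% for such regions of 1 library, so the difference in GC was also present in unrepeated sequence.

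Many members of the largest groups lay before long reading frames. An open reading frame of 1000 codons or more was found within 8 kb of 248 members, and the commonest length, in 160 of them, was 1281 codons, the length of ORF2 of mouse LINE-1. The frame began 1 to 3 kb after the member, in reading direction, in 185 members (4.44%, 3.86 to 5.11), in 38 of 501 members of 3 or 4 libraries (7.58%, 5.58 to 10.2), in 1.30% (1.21 to 1.41) of distal regions of 1 library and in 0.564% (0.481 to 0.662) of tiles. Among the members with a long frame, the median distance from midpoint to start codon was 1663 bases. No repeat annotation was used here, so the link to LINE-1 rests on the length of the frame and the shared sequence. Frames of this length anywhere within 8 kb were found in 5.95% of members and 3.54% of tiles. Of the 3 largest groups of shared sequence, 87 of 172, 42 of 78 and 26 of 50 members had such a frame 1 to 3 kb after them.

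The members before a long frame were on all 19 chromosomes, at a median of 153 kb from a protein-coding gene compared with 80.2 kb for other members. Their median GC was 62.54%, their CpG observed to expected ratio 0.565 and the most repeated stretch had a median of 922 copies. The share with a peak was 58.9% in untreated and 64.9% in ASO-treated Htt+/+ cortex, and 68.1% in untreated and 31.4% in ASO-treated HttQ111/+ cortex. In other members these shares were 56.0%, 55.3%, 57.3% and 44.2%, so the HttQ111/+ ASO library had the lowest share in both. The Gm6685 member, with 14 CG dinucleotides in the bases shown, is one of these: a frame of 1015 codons began 1527 bases after its midpoint. Its fold enrichment was 6.96, 4.96, 5.45 and 5.72 in Htt+/+ untreated, Htt+/+ ASO, HttQ111/+ untreated and HttQ111/+ ASO cortex. How reads that map to several copies were placed is not given in the sources used here, and its part in these peaks was not tested.

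**Figure D3:**
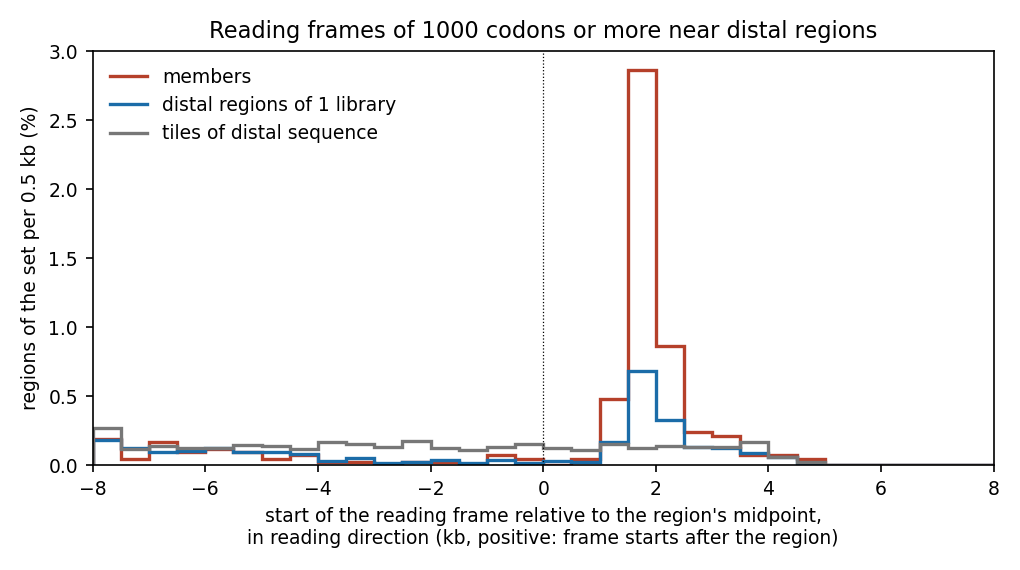
Share of regions per 0.5 kb (y axis, %) whose longest nearby reading frame of 1000 codons or more starts at the given distance after (positive) or before (negative) the region's midpoint in reading direction (x axis, kb), for members, distal regions of 1 library and tiles of distal sequence. Members peak at 2.86% between 1.5 and 2 kb, regions of 1 library reach 0.681% there and tiles 0.128%; frames starting over 5 kb after the midpoint cannot fit into the 8 kb searched.

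**Figure D4:**
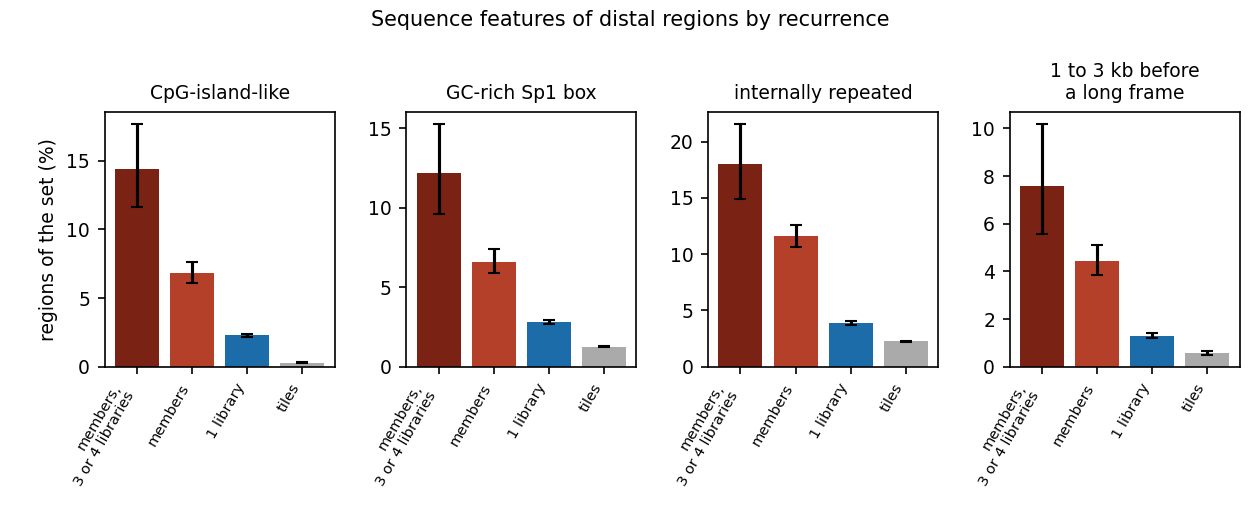
Share of regions (y axis, %) that are CpG-island-like, hold the Sp1 box, are internally repeated or lie 1 to 3 kb before a long frame. Sets are members of 3 or 4 libraries, all members, distal regions of 1 library and tiles. Bars are 95% Wilson intervals, and the y axis starts at 0. Internally repeated means that over 20% of the 12-base words in the central 400 bases occur more than once there. Each share falls from the members of 3 or 4 libraries (14.4%, 12.2%, 18% and 7.58%) to the tiles (0.288%, 1.26%, 2.25% and 0.564%).

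Small RNA genes lay near few members. Within 1 kb of an annotated small RNA gene there were 47 members (1.13%, 0.849 to 1.5), compared with 0.563% (0.502 to 0.630) of distal regions of 1 library and 0.420% of tiles. Of these, 31 were near snoRNA genes (0.744% compared with 0.265% and 0.148%), 6 near snRNA genes, 6 near miRNA genes and 4 near other small RNA genes. None was near a gene annotated as rRNA, which allows a share of up to 0.0921% for this annotation. Ribosomal RNA sequence without such an entry is not counted here. The snoRNAs were mainly of 2 families. SNORA17, a family of H/ACA RNAs that guide pseudouridylation, was near 17 members (0.408%) on 12 chromosomes, compared with 0.181% of regions of 1 library and 0.0835% of tiles. Of the 17, only 3 overlapped the gene and none had over 50% repeated stretches. The annotation holds 611 SNORA17 entries on 20 chromosomes, and which of them are working genes was not tested. SNORD116, the imprinted C/D RNA cluster of the Prader-Willi region, was near 10 members (0.240%), compared with 0.0191% of regions of 1 library.

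Among the members of 3 or 4 libraries, the small RNA member with the highest lowest fold enrichment overlapped an entry annotated as RNaseP_nuc. The name stands for the RNA subunit of nuclear RNase P, which trims the 5′ ends of tRNAs. Whether this entry is a working gene was not tested. This region, chr13:33659598-33660077, had fold enrichments of 5.34 in untreated and 6.45 in ASO-treated Htt+/+ cortex, 10.41 in untreated HttQ111/+ cortex and no peak in HttQ111/+ ASO cortex. A member over a U1 gene, the snRNA that recognises the 5′ splice site, at chr3:96292258-96292824, had 4.64, 6.08 and 5.67 in Htt+/+ untreated, Htt+/+ ASO and HttQ111/+ ASO cortex. All of its stretches were repeated, so reads of the U1 copies cannot be told apart. Members 191 and 224 bases from SNORA17 genes lay near Pcmtd1 (chr1:7256205-7256810) and Mstn (chr1:53157219-53157675), and a member 273 bases from a U6 gene lay 150 kb from Slitrk6 (chr14:110997218-110997877). The Mstn member was in all 4 libraries, at 3.56, 6.08, 3.64 and 2.92. A SNORD116 member 199 kb from Snrpn (chr7:66928154-66928860) had 3.4, 9.92 and 6.29 in Htt+/+ untreated, Htt+/+ ASO and HttQ111/+ untreated cortex.

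Few members held a known miRNA gene. The hairpin of Mir9-3, a miRNA of neural progenitors and neurons, overlapped the end of a member 38.7 kb from Polg (chr7:86649766-86650205). This member had fold enrichments of 4.76 in Htt+/+ untreated and 3.45 in HttQ111/+ untreated cortex and no peak with ASO in either genotype. Its background was 7.53 times the genome-wide one. The start site of the Mir9-3 host gene, at the member chr7:86660165-86660694, had 4.97, 4.39, 4.25 and 2.92 in the 4 libraries. The mature miRNA, with its seed in capitals, is shown because this locus had members at both its host promoter and its hairpin, which were named after their values were seen.
mmu-miR-9-5p: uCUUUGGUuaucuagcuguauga

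Some members overlapped start sites that RefSeq lists and that the annotation used for the rule does not place in a protein-coding gene body. The RefSeq promoters used here span 300 bases. Of 32851 promoters, 31872 were found exactly once in mm9. Of 4031 members on the chromosomes these cover, 37 (0.918%) overlapped one, as did 10 of 487 members of 3 or 4 libraries (2.05%), 0.556% of distal regions of 1 library and 0.303% of tiles. These included Fgf12, which encodes an intracellular regulator of sodium channels (4.97, 4.59 and 6.29 in Htt+/+ untreated, Htt+/+ ASO and HttQ111/+ untreated cortex, 77.5% GC, and 30 CG dinucleotides in the bases shown), Kcnh8, a potassium channel gene (4.30, 4.74 and 2.87 in Htt+/+ ASO, HttQ111/+ untreated and HttQ111/+ ASO cortex), and Pfkfb3, a regulator of glycolysis (4.56, 2.84 and 2.79 in the same 3 libraries). Each was chosen after its values were seen. The local backgrounds at Fgf12, Kcnh8 and Pfkfb3 were 8.38, 2.62 and 5.24 times the genome-wide one, compared with a median of 1.19 over all members. Other annotation was within 1 kb of few members: long noncoding RNA genes of 4.75% (3.11% of tiles) and pseudogenes of 1.90% (0.722% of tiles), while 92.2% had none of these.

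Some members lay close to another member. Another member lay within 10 kb of 565 members (13.6%, 12.6 to 14.6), in 258 chains of which 33 held 3 or more. Within 50 kb the share was 37.5% and within 100 kb 51.4%. For distal regions of 1 library the shares were 67.1% and 96.2% at 10 and 50 kb, but these regions are far more numerous, so the shares are not comparable between the sets. Whether members lay closer together than their number alone would give was not tested.

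The 3 chains with most members lay on chromosomes 7, 17 and 8. The first (chr7:67004405-67029737, 7 members, 97.8 to 123 kb from Snrpn) followed the SNORD116 genes. Peaks came from Htt+/+ ASO in 6 of the 7, from HttQ111/+ untreated in 6, from Htt+/+ untreated in 3 and from HttQ111/+ ASO in 2, with fold enrichments of 2.27 to 5.96. The second (chr17:39979949-39990905, 5 members) lay at the pseudogene AY036118, which the member chr17:39985148-39985764 overlapped. This chain was 353 to 362 kb from Pgk2, a phosphoglycerate kinase gene of the testis. Its first member held 149, 174, 151 and 156 reads in Htt+/+ untreated, Htt+/+ ASO, HttQ111/+ untreated and HttQ111/+ ASO cortex, the highest of any member in each library, but its background was 169 times the genome-wide one and its fold enrichment only 3.4, 3.76, 3.76 and 2.26. The third (chr8:56198484-56209023, 5 members, 52.5 to 62.2 kb from Gpm6a, a neuronal membrane glycoprotein gene) had backgrounds of 28.4 to 82.1 times the genome-wide one, and 4 of its 5 members had over 50% repeated stretches. Apart from the last member of the second chain, with 2 and 3 reads and a background equal to the genome-wide one, the members of these 3 chains had at least 3.99 times the genome-wide background, and the part of this in the peaks was not tested.

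The nearest protein-coding genes numbered 2421, of which 1524 were nearest to 1 member and 102 to 5 or more. The genes nearest to most members were Gm10479 (19), Gm17391 (19), Gm17680 (15), 3110018I06Rik (12), Gm10330 (11), Tbl1xr1 (11), Gm7112 (10), Snrpn (10), A430005L14Rik (9) and Brd1 (9), with Gm5784, Pcdh10 and Pgk2 also at 9. Of the 10 named first, 6 lie on chromosome 12, where 10 of 19, 11 of 19, 10 of 15 and 11 of 11 members nearest to Gm10479, Gm17391, Gm17680 and Gm10330 were of repeated sequence. Per Mb of distal sequence nearest to the gene, Snrpn with 48.3 and A430005L14Rik with 41.4 members were highest of the 10 named first, while Tbl1xr1, a corepressor subunit gene, had 5.87. Over all distal sequence the mean was 3.92.

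The share of members nearest to a gene group was set beside its share of distal sequence. Synaptic adhesion and axon guidance genes were nearest to 198 members (4.75%, 4.15 to 5.44) and 5.51% of distal regions of 1 library, but to 8.99% of distal sequence, led by Pcdh10 (9), Cdh20 (6), Cdh26 (6) and Cntnap5a (6). Developmental transcription factors were nearest to 180 members (4.32%), 4.9% of regions of 1 library and 3.78% of the sequence, led by Tbx3 (6), Gli2 (5), Meis1 (5) and Nr2f1 (5). For ion channels and neurotransmitter receptors the shares were 2.81%, 2.53% and 2.95% in the same order, led by Grik3 (6) and Grik2 (5). They were 1.99%, 1.79% and 1.42% for Zfp genes. For olfactory and vomeronasal receptors they were 1.75% (1.40 to 2.2), 1.16% and 1.14%. Striatal identity genes, which are downregulated in Huntington's disease models, were nearest to 18 members (0.432%, 0.273 to 0.682). They were nearest to 0.492% of regions of 1 library and 0.481% of the sequence, with 4 members at Bcl11b, 3 at Drd1a, 2 at Six3 and 2 at Tac1.

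Members became sparser with distance from genes, from 6.11 per Mb at 20 to 50 kb to 1.95 per Mb beyond 500 kb. The share of distal regions that recurred fell less, from 8.26% (7.85 to 8.69) to 6.71% (6.07 to 7.42). The farthest members of 3 or more libraries lay 1160 kb from Gm17624 (chr11:13711184-13711542), 1140 kb from Alcam, a cell adhesion gene (chr16:53590937-53591247), and 1130 kb from Nr2f1, a nuclear receptor gene of cortical patterning (chr13:79469877-79470491). The Alcam member, of unrepeated sequence, had 5.34, 5.47 and 5.45 in Htt+/+ untreated, Htt+/+ ASO and HttQ111/+ untreated cortex, with 3 reads in each. Just inside the 20 kb limit were members 20002 bp from Cyp3a11 (4.96 to 5.45), 20018 bp from Vmn2r31 (4.06 and 5.45) and 20019 bp from Gm17697 (3.70 and 4.39). Recurring regions just outside lay 19998 bp from Slc27a2 (5.47 to 6.19), 19995 bp from Sdk1 (4.96 and 8.33) and 19991 bp from Ano2 (3.73 and 6.19), and did not stand apart from the former. By chromosome the density ranged from 2.93 members per Mb on chromosome 16 to 5.92 on chromosome 7.

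The libraries contributed unequally. Untreated Htt+/+ cortex had a peak in 2338 members (56.1%), ASO-treated Htt+/+ in 2323 (55.7%), untreated HttQ111/+ in 2407 (57.8%) and ASO-treated HttQ111/+ in 1817 (43.6%). In recurring regions elsewhere the shares were 60.3%, 58.4%, 67.2% and 34.4%, so the distal members were spread more evenly over the libraries. The commonest pair was Htt+/+ untreated with HttQ111/+ untreated (779 members, 18.7%) and the rarest HttQ111/+ untreated with HttQ111/+ ASO (484, 11.6%). Median fold enrichment in members was 5.34, 5.0, 5.45 and 4.41 in the order above. The lower value of the HttQ111/+ ASO library is also that of its distal regions of 1 library (4.41), and this library had the highest ChIP depth and the widest minimum peak, 287 bp compared with 210 to 230 bp.

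To ask whether lowering HTT changed the members, fold enrichment was compared where both libraries had a peak. The comparisons share libraries and are given side by side. In Htt+/+, ASO was below untreated in 595 of 978 members (60.8%, 57.7 to 63.8), compared with 54.6% of all recurring regions. The median log2 ratio was -0.09 in members and -0.08 in all recurring regions. In HttQ111/+, ASO was below untreated in 485 of 697 members (69.6%, 66.1 to 72.9), compared with 70.8% of all recurring regions, and the median log2 ratio was -0.31 in both. When each library was divided by its median over the recurring regions with a peak in both, the share was 58.7% in Htt+/+ and turned to 49.6% in HttQ111/+. In HttQ111/+ the members' interval held the value of all recurring regions, and the difference from it in Htt+/+ has no replicate check.

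Between genotypes, HttQ111/+ was below Htt+/+ in 388 of 1131 members (34.3%, 31.6 to 37.1) in untreated cortex, compared with 37.5% of all recurring regions, and in 511 of 752 members (68.0%, 64.5 to 71.2) after ASO, compared with 70.1%. The median log2 ratio was 0.09 untreated and -0.30 after ASO. Divided by the library medians, the shares were 57.5%, which reverses the direction in untreated cortex, and 54.4%. In both, the side of 50% was that of all recurring regions before this division. In the 50 members with 4 peaks, 21 were lower with ASO in both genotypes, 7 were higher in both, 7 were lower in Htt+/+ only and 15 in HttQ111/+ only. The HttQ111/+ ASO value was the lowest of the 4 libraries in 30 of them. Total reads over them, not divided by depth, were 988 in untreated and 1147 in ASO-treated Htt+/+ cortex, and 992 in untreated and 992 in ASO-treated HttQ111/+ cortex. Median reads were only 4, 5, 4 and 5 in the same order. Most of the total reads fell in the 11 of these members with a local background over 10 times the genome-wide one, so the totals do not describe the 50 as a whole.

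**Figure D5:**
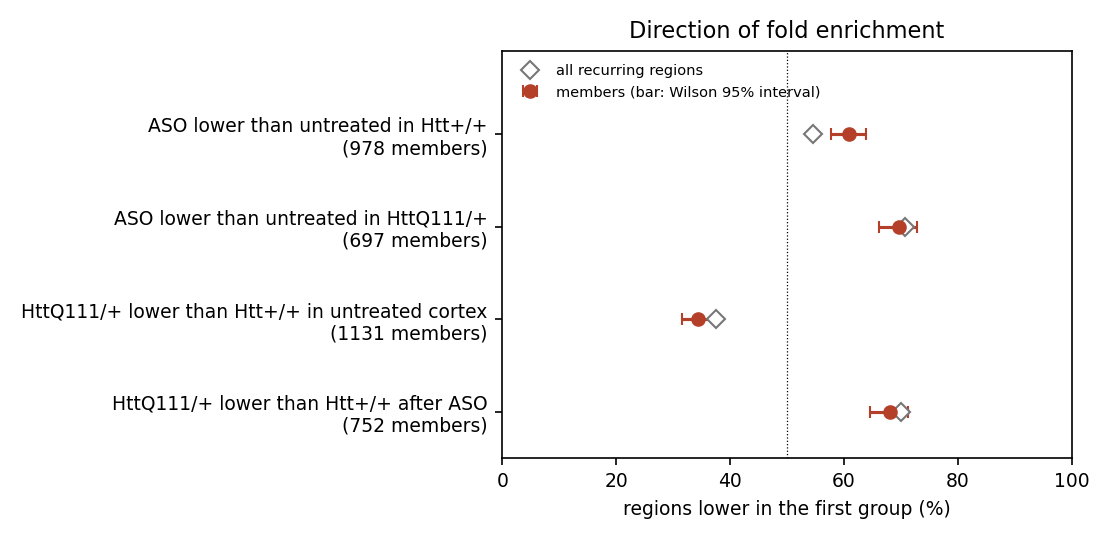
Share of regions with the lower fold enrichment in the first group (x axis, %) for the 4 comparisons (y axis), for members (points, bars are 95% Wilson intervals) and all recurring regions (diamonds); the dotted line marks 50%. For ASO in HttQ111/+ and for genotype after ASO the members' interval holds the value of all recurring regions. For ASO in Htt+/+ the members (60.8%) lie above it (54.6%), and for genotype in untreated cortex their interval (31.6 to 37.1) lies below it (37.5%).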

How the data were processed

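HTT ChIP-seq was performed on 4 pools of cortex, 1 library per group, with 4 inputs merged into 1 control. Per the labels, reads were demultiplexed with bcl2fastq 2.17, aligned with HISAT2 and peaks called with MACS2. The labels name build mm9 and the methods mm10. The coordinates were read as mm9. The deposited peak lists give a score, a fold enrichment ratio over background, −log10 p and −log10 q per peak, called by the authors for each library. Whole reads at each summit were recovered from the deposited ratio and −log10 p (100.0% of peaks, tolerance 0.01). Depth was 1.10 to 1.36 ChIP reads per kb, so most values rest on a few reads.

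Peaks were merged at 1 bp overlap and placed by GENCODE vM1. Repeated stretches are exact 100-base matches in mm9. Shares, intervals and matches were computed with numba 0.67.0, scipy 1.17.1, pandas 2.3.3 and numpy 2.4.6 under Python 3.11.15, and the recovery of reads and merging were tested on simulated data. With 1 library per group no test was made. The members and gene lists were chosen with earlier results of these data known.

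Named regions were the 10 members of 4 libraries with the highest lowest fold enrichment (the first by this order is not reported here), the 6 small RNA members of 3 or more libraries ranked likewise, the 3 chains with most members, the 3 farthest members of 3 or more libraries, 3 on each side of the 20 kb limit and the 10 genes nearest to most members. Alternatives were peak q, number of libraries, overlap, distance, annotation, scaling, minimum reads and leaving out each library. A list of problem regions of the genome and a repeat annotation were not used here.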

Additional observations from a re-analysis of the deposited data

Results flagged for a closer look

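The share of members lower in HttQ111/+ than in Htt+/+ cortex was 34.3% (31.6 to 37.1, n = 1131) in untreated cortex and 68.0% (64.5 to 71.2, n = 752) after ASO. The result was picked out because the shares lie on opposite sides of 50%. The difference between them was not tested, since each group was 1 library. At equal reads the libraries also differed in fold enrichment, as given above, and the part of this was not tested. All recurring regions gave 37.5% and 70.1%, and with fold enrichment divided by the library median the members gave 57.5% and 54.4%, on the same side.

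Chromosome X, outside the chromosomes used for the members, held 100 distal recurring regions of 1463 distal regions (6.84%, 5.65 to 8.24). This share was picked out as a signal in data not used above, and its interval holds the 7.36% of chromosomes 1 to 19.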

How the results depend on the processing

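No paired analysis was possible because the labels number no replicates, each group being 1 library. A fit of ASO with genotype as a block was not made, and ASO is given within each genotype instead. Most values rest on few reads. The number of members was 4167 and fell to 2623 with peaks overlapping by 50% of each, 879 with at least 4 reads per peak (chosen after seeing the data), 501 with 3 libraries and 50 with 4. Leaving out 1 library gave 2178 to 2610 members, and each library moved the number by over 1.5 times (2237 without Htt+/+ untreated, 2248 without Htt+/+ ASO, 2178 without HttQ111/+ untreated, 2610 without HttQ111/+ ASO). Median GC was 53.8% with q below 0.01, 55.64% with 3 libraries, 54.5% in 200 bases at the summit, 52.29% to 54.51% without 1 library and, in alternatives chosen after seeing the data, 58.75% with at least 4 reads and 52.75% without members of repeated sequence. The share near a small RNA gene was 0.384% by overlap, 2.35% within 5 kb and 1.8% with 3 libraries (0.964% to 1.43% without 1 library). The share with another member close by was 37.5% within 50 kb, 10.2% with q below 0.01, 5.59% with 3 libraries, 6.84% to 9.81% without 1 library (6.84% without Htt+/+ untreated and 7.58% without HttQ111/+ untreated) and 11.9% without members of repeated sequence, where fewer members are left.

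For ASO in Htt+/+, the share was 53.1% with a peak in either library, 65.0% by −log10 q and 64.4% by reads per depth (chosen after seeing the data). For ASO in HttQ111/+ it turned to 49.6% with fold enrichment over the library median, and was 62.2% with a peak in either library and 58% by reads per depth. For genotype in untreated cortex it turned to 57.5% over the library median and was 44.1% with a peak in either library. For genotype after ASO it was 54.4% and 61.5%. Leaving out an unrelated library gave 60.5% to 61.0%, 69.6% to 69.8%, 34.1% and 67.9% to 68.1% in the order above. The cause was not tested. Of 63 alternatives over these results, 35 moved a value beyond its interval (the number of members by over 1.5 times), 2 turned its direction and 26 did neither.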

Other observations

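The imprinted Dlk1-Dio3 domain on chromosome 12, which holds Meg3 and a large cluster of miRNA genes, contained 14 members between positions 110336378 and 111453847, a locus chosen after its values were seen. None had over 50% repeated stretches or a background over 10 times the genome-wide one, and 4 were in 3 or 4 libraries. The member in all 4 libraries, chr12:111426782-111427376, lay 90.2 kb from Dio3, which encodes the deiodinase that inactivates thyroid hormone. Its fold enrichment was 6.79 in untreated and 6.28 in ASO-treated Htt+/+ cortex, and 9.14 in untreated and 3.59 in ASO-treated HttQ111/+ cortex, from 6, 6, 8 and 5 reads. The HttQ111/+ ASO library was lowest. Another member (chr12:110956708-110957106) held Mir495, with 6.19 in untreated and 3.10 in ASO-treated HttQ111/+ cortex and no peak in Htt+/+. These values rest on 3 and 2 reads, so no difference between the libraries can be read from them. The 11 members of the imprinted Snrpn region on chromosome 7 differed in background, with 4 over 10 times the genome-wide one and 7 with over 50% repeated stretches.

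Members with a local background over 10 times the genome-wide one numbered 39 (0.936%), and 26 of them (66.7%) were in 3 or 4 libraries, compared with 11.5% of the other members. Their median GC was 60.9%, and 24 lay in chains. The 11 in all 4 libraries had fold enrichments of 1.48 to 2.26 in HttQ111/+ ASO and 2.18 to 3.76 in the other libraries.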
